A study of Mus musculus with 6 samples.

Results

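The 7 genes described here, out of 24467 gene IDs in the deposited table, are paralogues of ribosomal protein genes: Rpl39l, Rpl10l, Rps4l, Rpl22l1, Rpl7l1, Rps27l and Rpl32l. They were taken by Entrez ID from a list of names ending in "l" or "l1", and that list was chosen by name with one measured value in view, the higher Rpl39l level of the knockout cells. Each is set beside its parent gene, in the same order Rpl39, Rpl10, Rps4x, Rpl22, Rpl7, Rps27 and Rpl32. The values come from RNA sequencing of mouse embryonic stem (ES) cells in 6 libraries. The control is 1 clone with floxed alleles of Cbx5 (HP1α) and Cbx1 (HP1β), labelled F/F with genotype WT, in 2 libraries. The double knockout (DKO) of both genes is represented by clones 1 and 2, with 2 libraries each. HP1α and HP1β bind histone H3 methylated at lysine 9 in heterochromatin. All cells were untreated and were grown in knockout serum replacement with LIF, 3 µM CHIR99021 (a GSK3 inhibitor) and 0.8 µM PD184352 (a MEK inhibitor). No label ties the libraries of a clone to separate cultures, so the spread between them may be technical. With 1 control clone, a difference of genotype and a difference between clones cannot be told apart.

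Nearly all ribosomal proteins are made from a single active gene among many inactive processed copies. A few of these genes have an expressed paralogue whose protein can take the parent's place in the ribosome. Rpl10, Rpl39 and Rps4x lie on the X chromosome, which is silenced in male meiosis, and the autosomal copies Rpl10l and Rpl39l are known for expression in the male germ line. Rpl22l1 is known to be held down by Rpl22 protein, Rps27l is a p53-inducible paralogue of Rps27, and Rpl7l1 is a more distant homologue linked to ribosome assembly. Rps4l and Rpl32l are intronless copies in GENCODE, annotated there as a transcribed processed pseudogene and a processed pseudogene. RefSeq gives Rps4l as a transcribed pseudogene but Rpl32l as protein coding.

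Sequences are shown first because they decide how far reads of a paralogue can be told from reads of its parent. The coding sequences of Rpl39l (3 exons, chr16:10170197-10174911, plus strand) and Rpl39 (chrX:37082518-37085222, minus strand) are both 156 bases long and differ at 23 of them, so that 85.3% are identical. They are taken from GENCODE M21 on GRCm38 and are written 5′ to 3′, with the differing bases in capitals.
Rpl39l: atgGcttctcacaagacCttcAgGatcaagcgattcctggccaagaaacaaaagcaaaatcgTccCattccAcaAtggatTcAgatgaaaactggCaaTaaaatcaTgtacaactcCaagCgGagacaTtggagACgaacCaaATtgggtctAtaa
Rpl39: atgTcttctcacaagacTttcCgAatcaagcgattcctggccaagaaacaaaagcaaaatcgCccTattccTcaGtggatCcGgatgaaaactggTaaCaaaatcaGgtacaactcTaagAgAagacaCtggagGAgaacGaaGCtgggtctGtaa
Of these 23 differences 16 lie at the third position of a codon, 5 at the first and 2 at the second. None of the 828 windows of 50 bases in Rpl39l transcripts occurs in a transcript of another gene. Rpl10l and Rpl10 differ at 98 of 645 coding bases, 89 of them at the third codon position, and no window of 50 bases is shared between the pair.

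The Rps27 family gives an opposite case for a parent gene, with a copy of identical coding sequence, which is why its sequences are shown. Rps27l (chr9:66944624-66949522, plus strand) differs from Rps27 (chr3:90212667-90213648, minus strand) at 61 of 255 coding bases, in capitals below, and shares no window of 50 bases with it.
Rps27l: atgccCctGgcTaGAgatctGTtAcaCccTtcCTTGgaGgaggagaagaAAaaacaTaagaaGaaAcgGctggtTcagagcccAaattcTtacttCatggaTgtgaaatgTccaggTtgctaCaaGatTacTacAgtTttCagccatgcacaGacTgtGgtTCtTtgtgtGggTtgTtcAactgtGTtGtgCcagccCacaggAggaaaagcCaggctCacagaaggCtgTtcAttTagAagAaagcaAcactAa
Rps27: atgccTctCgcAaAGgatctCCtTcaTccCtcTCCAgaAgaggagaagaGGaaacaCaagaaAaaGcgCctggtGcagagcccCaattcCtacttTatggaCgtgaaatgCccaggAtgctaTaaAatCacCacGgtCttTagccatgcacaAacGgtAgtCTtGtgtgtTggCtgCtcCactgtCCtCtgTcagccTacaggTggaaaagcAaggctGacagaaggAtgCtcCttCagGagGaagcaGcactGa
A further copy, Rps27rt (chr9:114982366-114982739), has a coding sequence identical to that of Rps27 in all 255 bases, and 91.1% of its windows of 50 bases occur in Rps27. In every library its count was 97.9 to 98.8% of the Rps27 count. The reads of Rps27 and Rps27rt can therefore not be told apart, and every Rps27 value below carries that limit. Rpl32l is the only one of the 7 paralogues that shares windows with its parent: 10 of 398 aligned bases differ from Rpl32 (97.5% identical), and 19.4% of its windows of 50 bases occur in Rpl32 transcripts. With Rpl32 included, 35.4% of the Rpl32l windows occur in transcripts of 9 other genes. Its count was 0.556 to 1.17% of the Rpl32 count. Rpl10l, Rps4l, Rpl22l1, Rpl7l1 and Rps27l share 6.75 to 14.9% of their windows with pseudogenes or other genes (Rpl10l 7.6%, with Gm14460), but none with the parent. Parents other than Rps27 also share windows of 50 bases with other genes. The shares are 41.22% for Rps4x, 33.52% for Rpl10, 25.63% for Rpl32, 21.03% for Rpl7, 6.81% for Rpl39 and 3.47% for Rpl22. Levels of these parents, and ratios to them, may therefore include reads of other genes, and the size of that part was not tested.

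Promoters are shown for the 3 paralogues that differed between the clones, and for Rpl39 beside Rpl39l. RefSeq promoters (GRCm38.p6, 250 bases before to 50 after the start) were matched for 6 of the 7 paralogues (not Rps4l) and for 5 of the 7 parents. From 150 bases before to 30 bases from the start on, 5′ to 3′, they read as follows, with capitals for CGGAAG (searched on both strands, so also CTTCCG) and for a run of C followed by at least 4 pyrimidines close to the start.
Rpl39l (chr16:10170078-10170257, plus strand): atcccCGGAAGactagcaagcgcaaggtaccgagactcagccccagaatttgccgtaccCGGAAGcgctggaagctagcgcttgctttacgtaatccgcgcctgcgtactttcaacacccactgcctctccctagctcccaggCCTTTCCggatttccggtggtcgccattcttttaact
Rpl39 (chrX:37085193-37085372, minus strand): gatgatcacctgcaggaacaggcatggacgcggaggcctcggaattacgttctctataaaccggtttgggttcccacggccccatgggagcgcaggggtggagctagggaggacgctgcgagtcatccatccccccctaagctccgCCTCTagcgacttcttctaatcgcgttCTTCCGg
Rpl10l (chr12:66284372-66284551, minus strand): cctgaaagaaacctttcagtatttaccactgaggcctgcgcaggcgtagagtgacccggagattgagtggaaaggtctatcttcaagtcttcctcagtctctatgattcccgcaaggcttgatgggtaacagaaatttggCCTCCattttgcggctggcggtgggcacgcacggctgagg
Rpl32l (chr10:20208289-20208468, plus strand): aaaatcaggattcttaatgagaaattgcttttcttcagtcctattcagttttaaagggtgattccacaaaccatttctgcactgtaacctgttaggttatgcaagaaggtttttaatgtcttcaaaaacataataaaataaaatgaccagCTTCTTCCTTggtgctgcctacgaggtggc
The Rpl39l window holds 2 copies of CGGAAG and the Rpl39 window 1 copy of CTTCCG, while the Rpl10l and Rpl32l windows hold neither. Of 32851 mouse promoters of 300 bases, 16.9% hold this motif on either strand, against 61.8% of 68 promoters of core ribosomal protein genes. The pyrimidine run, looked for from 10 bases before to 15 after the start, occurs in 30.7% of all promoters and in 54.4% of the core ones, and it is present in all 4 windows above. Over 300 bases the Rpl39l promoter has 17 CpG and 52.7% G+C, and the Rpl32l promoter has 3 CpG and 34.7% G+C. A match describes the letters only and is not a measured binding site.

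The libraries held 24628872 to 34641560 counted reads, and 14771 genes passed the filter on low counts, among them all 7 paralogues and all 7 parents. Levels are CPM (counts scaled to library size, with TMM factors), and changes are log2 changes from edgeR with their standard error (SE). In DKO against control Cbx5 fell by 2.04 and Cbx1 fell by 2.30 on the log2 scale. The summed level of 12 pluripotency markers was 4915 to 5228 CPM in all 6 libraries, and Nanog (0.33 higher) and Tdgf1 (0.28 lower on the log2 scale) were the markers that passed in DKO. Both calls were lost without either control library and with each chromosome centred on its median, where Nanog, a chromosome 6 gene, turned to -0.13 (adjusted p = 0.321) and Tdgf1 was at -0.25 (adjusted p = 0.0751). In that centred fit 1 of the 12 markers passed as lower in DKO, and it was neither Nanog nor Tdgf1. Dppa3 had the lowest uncentred change of the 12, at -0.68 in DKO, -0.997 in clone 1 and -0.415 in clone 2. For genes on chromosomes 3 and 6 the median log2 change in DKO was 0.18 and 0.48, against 0 over all genes, and this is given beside the paralogues and parents it touches. Rps4l and Rpl32 lie on chromosome 6, Rpl22l1 and Rps27 on chromosome 3.

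**Figure D1:**
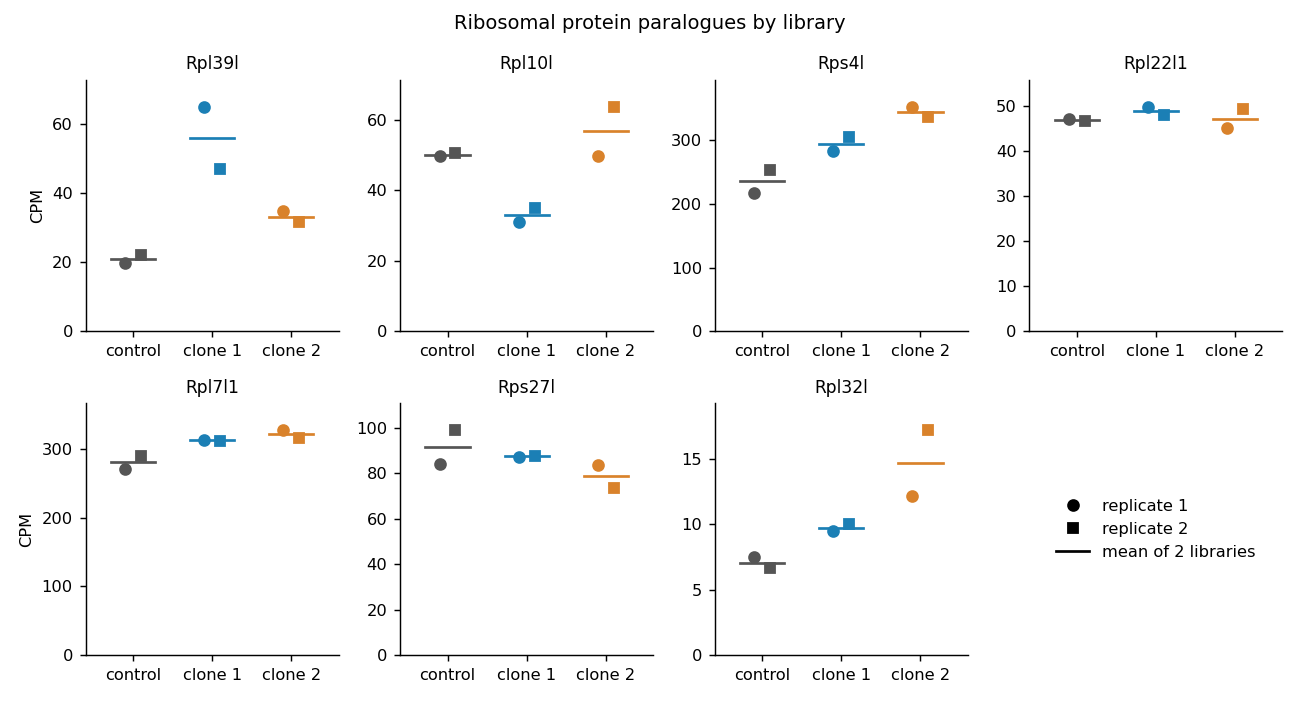
TMM-scaled CPM of each paralogue (vertical axis, from 0) in the control, clone 1 and clone 2; circles and squares are replicates 1 and 2, and lines are means of 2 libraries. Rpl39l is above both control libraries in all 4 DKO libraries, while Rpl10l is lowest in clone 1, at 31.0 and 35.1 CPM.

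Rpl39l, the paralogue of the small large-subunit protein Rpl39 at the nascent peptide exit tunnel, had the largest fold difference between DKO and control of the 7 paralogues. It stood at 19.7 and 22.2 CPM in the control, 65.0 and 47.1 CPM in clone 1, and 34.7 and 31.7 CPM in clone 2. All 4 DKO libraries were above both control libraries, and both clone 1 libraries were above both clone 2 libraries. The means were 20.9 ± 1.79 CPM (SD, n = 2) in the control and 44.6 ± 15.1 CPM (SD, n = 4) in DKO, a ratio of 2.13. The log2 change was 1.09 (SE 0.251) in DKO, 1.42 (SE 0.133) in clone 1 and 0.67 (SE 0.135) in clone 2, given as a description because this contrast was known when the gene was chosen. Both clones are set against the same control libraries.

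The clones differed from each other in Rpl39l. The choice of genes was not based on clone 2 against clone 1, though earlier results of these data were known. In that contrast the log2 change was -0.76 (SE 0.131, adjusted p = 0.00487, edgeR quasi-likelihood test with Benjamini-Hochberg adjustment over 14771 genes). The call ended without clone 2 replicate 2 (log2 change -0.69, adjusted p = 0.0536), and over all 14 alternatives the change ran from -0.97 to -0.51. The X-linked parent Rpl39 was at 513.7 and 531.7 CPM in the control, 483.6 and 566.8 in clone 1, and 522.9 and 528.7 in clone 2. These ranges overlap, and its log2 change in DKO was 0.01 (SE 0.0723, adjusted p = 0.967). Chromosome 16, which carries Rpl39l, had a median change of -0.01 in DKO, and the 10 tested genes nearest to Rpl39l had a median of 0.02, from -0.43 to 0.93, with 0 of them passing. Of the same neighbours 1 passed in clone 1 and 3 in clone 2, where the highest was at 1.06, and 0 passed between the clones.

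Rpl10l, the intronless copy of Rpl10 that serves male meiosis when the X chromosome is silent, split the clones in the other direction. It was at 49.8 and 50.6 CPM in the control, 31.0 and 35.1 in clone 1, and 49.8 and 63.8 in clone 2. Clone 1 was below every other library, and clone 2 reached from the control level upwards. The mean was 50.2 ± 0.547 CPM (SD, n = 2) in the control and 44.9 ± 14.9 CPM (SD, n = 4) in DKO, and the log2 change was -0.16 (SE 0.231) in DKO, -0.60 (SE 0.111) in clone 1 and 0.18 (SE 0.109) in clone 2. Clone 2 against clone 1 gave a log2 change of 0.78 (SE 0.112, edgeR adjusted p = 0.00144), past the threshold in all 14 alternatives, with values from 0.59 to 0.95. Rpl10, the large-subunit protein needed for subunit joining, was at 434.6 and 395.1 CPM in the control, 449.5 and 395.6 in clone 1, and 449.1 and 382.8 in clone 2. Its log2 change in DKO was 0.02 (SE 0.0837, adjusted p = 0.939), and the sign changed when single libraries were left out.

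Rpl39l and Rpl10l, the copies known from the male germ line, thus did not have the same order across groups: clone 1 was highest in Rpl39l and lowest in Rpl10l. Of 47 tested meiosis and germline genes, 8 were lower in DKO and 0 higher, where 3.62% of all genes were lower and 5.06% higher. The list median was -0.34. Among the 8 were Sycp1 of the synaptonemal complex (-1.45, or -1.61 with its chromosome 3 centred), Tex15 (-0.81) and Taf7l (-1.41). The RNA helicase Ddx4 was among them too, with 17.4 ± 1.83 CPM (SD, n = 2) in control and 8.67 ± 0.93 CPM (SD, n = 4) in DKO libraries. Leaving out control replicate 1 or 2 reduced the count to 4 or 3. Of the 10 germ cell and spermatid markers 3 passed the filter and 2 of these (Ddx4 and Dazl) were lower, or 1 without either control library. Their list summed to 123.0 to 133.5 CPM in the control, 88.9 to 96.9 in clone 1 and 67.4 to 72.0 in clone 2, and the spermatid genes Tnp1, Tnp2 and Akap4 were at 0 in every library. The 47 meiosis and germline genes did not all move the same way. In DKO 11 had a change above 0, with Piwil1 highest (1.40), and at an unadjusted edgeR p under 0.05, 5 were higher and 14 lower. Against control 0 passed as higher and 16 as lower in clone 1, and 4 and 12 in clone 2. In clone 2 against clone 1, 7 were higher and 3 lower, with a list median of 0.16. The part of germline gene levels in the Rpl39l and Rpl10l values was not tested.

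**Figure D2:**
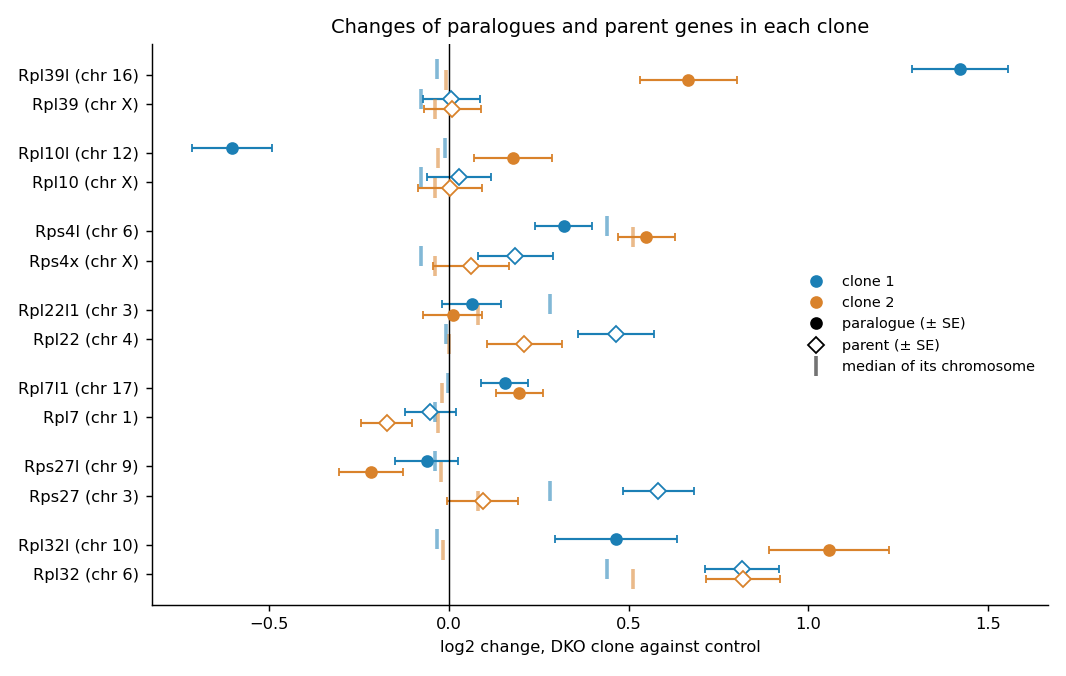
Log2 change against control (horizontal axis) of each paralogue (filled circles) and its parent (open diamonds) in clone 1 (blue) and clone 2 (orange), with SE bars; short vertical ticks are the median of the gene's chromosome. Rpl39l lies at 1.42 and 0.67, Rpl10l on either side of 0, and Rps4l beside the median of chromosome 6.

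Rps4l, the transcribed copy of the small-subunit gene Rps4x, was the most abundant of the 7 per kilobase. It stood at 218.0 and 254.1 CPM in the control, 282.8 and 306.1 in clone 1, and 353.2 and 337.2 in clone 2, so that DKO and control libraries did not overlap. The log2 change was 0.44 (SE 0.098) in DKO, 0.32 in clone 1 and 0.55 in clone 2. Its chromosome 6 had medians of 0.48, 0.44 and 0.51 in the same contrasts. After centring of each chromosome the change of Rps4l was -0.03 in DKO, -0.11 in clone 1 and 0.05 in clone 2, so the direction reversed in the first pair. The 10 nearest tested genes had a median of 0.40, and 7 of them passed the test. Tmtc1, whose intron holds Rps4l on the opposite strand, had a log2 change of 0.32 (SE 0.155, adjusted p = 0.243) at 7.43 CPM in the control. Between the clones Rps4l changed by 0.23 (SE 0.0794, edgeR adjusted p = 0.113), which did not pass. The X-linked Rps4x was at 964.8 and 842.0 CPM in the control and 904.7 to 1149 CPM in DKO, with a log2 change of 0.12 (SE 0.104, adjusted p = 0.524).

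Rpl22l1, whose mRNA Rpl22 protein is known to repress, was the flattest of the 7. It was at 47.1 and 46.7 CPM in the control, 49.9 and 48.1 in clone 1, and 45.1 and 49.4 in clone 2. The log2 change was 0.04 (SE 0.0782) in DKO, against a median of 0.18 for its chromosome 3, and -0.13 once the chromosome was centred. Between the clones it changed by -0.05 (SE 0.0825, edgeR adjusted p = 0.787). An antisense gene overlaps 7.99% of its exon bases, and the counted strand is not given in the sources used here. Its parent Rpl22 was at 587.3 and 584.3 CPM in the control, 925.5 and 692.1 in clone 1, and 680.9 and 674.6 in clone 2. The DKO libraries were all above the control, but the log2 change of 0.34 (SE 0.122, adjusted p = 0.116) did not pass. In clone 1 alone Rpl22 rose by 0.47 on the log2 scale (SE 0.105, edgeR adjusted p = 0.0091), a call lost without clone 1 replicate 1 (0.24, adjusted p = 0.08) and without either control library (adjusted p = 0.056 and 0.0562).

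Rpl7l1, the homologue of the large-subunit protein Rpl7, was at 271.7 and 290.4 CPM in the control and at 312.1 to 327.3 CPM in the 4 DKO libraries, which did not overlap with the control. Its log2 change was 0.18 (SE 0.0604) in DKO, 0.16 in clone 1 and 0.20 in clone 2. The clones differed by 0.04 (SE 0.0649, edgeR adjusted p = 0.792). Rpl7 averaged 1615 ± 20.1 CPM (SD, n = 2) in control libraries and 1495 ± 75.4 CPM (SD, n = 4) in DKO, with a log2 change of -0.11 (SE 0.0686, adjusted p = 0.372) that did not pass.

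Rps27l, the p53-inducible paralogue of Rps27, was at 83.9 and 98.9 CPM in the control, 87.2 and 87.8 in clone 1, and 83.5 and 73.7 in clone 2. DKO and control overlapped, and the log2 change was -0.14 (SE 0.0934) in DKO, -0.06 in clone 1 and -0.22 in clone 2. Between the clones it changed by -0.15 (SE 0.0894, edgeR adjusted p = 0.359). Among 29 tested p53 target genes, 18 were lower in clone 2 than in clone 1, with a median of -0.42 against 0.003 over all genes, and the count stayed at 12 or more with any 1 library left out. Perp, a desmosomal p53 target, was at 49.5 CPM in clone 1 and 26.0 CPM in clone 2 (log2 change -0.93, SE 0.106, adjusted p = 0.000357), and the kinase gene Plk2 at 90.8 and 58.1 CPM (-0.65, SE 0.0747, adjusted p = 0.000378). Against the shared control, 9 of the 29 genes were higher and 1 lower in clone 1 (median 0.11), and 1 was higher and 11 lower in clone 2 (median -0.24). The 9 fell to 4 without either control library or clone 1 replicate 1, and to 5 without clone 1 replicate 2. The 11 fell to 6 without control replicate 1, and to 5 and 4 without clone 2 replicates 1 and 2. With both clones pooled as DKO, 1 of the 29 genes, Xpc on chromosome 6, was higher, and it lost the call once that chromosome was centred and without either control library. Rps27, with its inseparable copy Rps27rt, was at 449.6 and 478.9 CPM in the control, 782.0 and 608.5 in clone 1, and 486.2 and 505.0 in clone 2. It was the parent that differed between the clones (log2 change -0.49, SE 0.0982, edgeR adjusted p = 0.0112), a call lost with chromosome 3 centred (-0.31, adjusted p = 0.0994) and without clone 1 replicate 1 (-0.30, adjusted p = 0.0703), clone 2 replicate 1 (adjusted p = 0.0962) or clone 2 replicate 2 (adjusted p = 0.0619).

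Rpl32l, the intronless copy of Rpl32, was the least abundant of the 7. It was at 7.48 and 6.63 CPM in the control, 9.48 and 10 in clone 1, and 12.2 and 17.2 in clone 2, from counts of 214 to 459 reads. The groups did not overlap and were ordered control, clone 1, clone 2. The log2 change was 0.79 (SE 0.228) in DKO, 0.47 (SE 0.169) in clone 1 and 1.06 (SE 0.166) in clone 2. Between the clones it changed by 0.59 (SE 0.164, edgeR adjusted p = 0.0489). That call was lost in 7 of 14 alternatives, which were limma-voom, centring, and leaving out either control library, either clone 1 library or clone 2 replicate 2 (0.32, adjusted p = 0.456). Map7, whose intron holds Rpl32l on the same strand, was at 105.3 CPM in the control and 97.9 CPM in DKO (log2 change -0.11, SE 0.076, adjusted p = 0.448).

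The parent Rpl32, a large-subunit protein gene on chromosome 6, rose in DKO from 858.0 ± 24.5 CPM (SD, n = 2) to 1511 ± 163.2 CPM (SD, n = 4), a log2 change of 0.82 (SE 0.0982, edgeR adjusted p = 0.00124). The 4 DKO libraries were at 1315 to 1703 CPM, all above the control libraries at 840.7 and 875.3. With chromosome 6 centred the DKO change was 0.35 and did not pass (edgeR adjusted p = 0.0636), nor did it pass with counts summed per clone. In the centred fit clone 1 against control still passed (0.39, edgeR adjusted p = 0.0317), while clone 2 against control did not (0.32, edgeR adjusted p = 0.0641). Rpl32 and Rpl32l share sequence, so that part of the Rpl32l count may be reads of Rpl32. Rpl32l also shares windows with other genes. As a share of the Rpl32 count, that of Rpl32l was 0.89 and 0.757% in the control, 0.556 and 0.762% in clone 1, and 0.78 and 1.17% in clone 2, and between the clones Rpl32 did not pass (log2 change 0.003, SE 0.103, adjusted p = 0.993). How the authors counted reads that match both genes is not given in the sources used here. The exon bases of Rpl32 also overlap the snoRNA gene Snora7a on the same strand (14.5%) and Cand2 on the opposite strand (5.5%). The part of these overlaps in the Rpl32 values was not tested.

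Of the 7 paralogues, 2 (Rpl39l and Rps4l) passed an adjusted p of 0.05 as higher in DKO, where 8.69% of all genes passed in either direction. By direction these shares were 5.06% higher and 3.62% lower. Since the paralogues were chosen with this contrast known, nothing is read from that count, and it was 0 without either control library and 1 with chromosomes centred. DKO and control libraries did not overlap for 4 of the 7, all higher, beside 16.9% of all genes higher, 16.9% lower and 33.8% in either direction. In clone 1 against control 2 were higher and 1 lower, where 15.3% of all genes passed (8.79% higher, 6.47% lower). In clone 2 against control 3 were higher, where 15% of all genes passed (7.89% higher, 7.08% lower). In clone 2 against clone 1, 2 were higher (Rpl10l and Rpl32l) and 1 lower (Rpl39l), with 6.3% of all genes passing (2.53% higher, 3.77% lower). Of the 7 parents, 1 passed in DKO (Rpl32) and 1 between the clones (Rps27). Against control 3 parents were higher in clone 1 (Rpl22, Rps27 and Rpl32) and 1 in clone 2 (Rpl32). With chromosomes centred Rps27 lost the call in clone 1, and Rpl32 that in clone 2.

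Core ribosomal protein genes give the scale for these values. Of 79 tested, 1 (Rpl32) was higher and none lower in DKO by edgeR, 1.27% of them, with a median log2 change of 0.01 and a range from -0.28 (Rpl31) to 0.82 (Rpl32). At an unadjusted p under 0.05, 7 were higher and 5 lower, and DESeq2 called 4 higher and limma-voom 1. Of the 79, 47 belong to the large subunit and 32 to the small one, where edgeR called none, with 2 at an unadjusted p under 0.05, both higher, and 1 by DESeq2. In clone 1 against control 7 of the 79 were higher and 1 lower (10.1%), where 15.3% of all genes passed. In clone 2 against control 3 were higher (3.8%), where 15% of all genes passed. Between the clones 1 was higher and 3 lower (5.06%), where 6.3% of all genes passed. The summed core level was 66641 to 71475 CPM. Clone 1 replicate 1 was the highest library for 44.3% of core genes and 17.6% of other genes, and of the genes above Rpl39l, Rpl22l1, Rpl10, Rpl22, Rps27, Rps4x and Rpl32 are also highest in that library. Without it the log2 change of Rpl39l was 0.85 in DKO, 1.17 in clone 1 and -0.51 in clone 2 against clone 1 (edgeR adjusted p = 0.0376). Of 3 further paralogues none passed in DKO by edgeR, DESeq2 or limma-voom, with 1 higher and 1 lower at an unadjusted p under 0.05: Rpl3l (log2 change -0.29), Rpl36al (-0.16) and Rps27rt (0.36). Among 40 ribosome biogenesis genes 3 passed in DKO: the polymerase I subunit gene Polr1a (0.57) and the methyltransferase gene Nop2 (0.53), both on chromosome 6, were higher, and the nucleolar chaperone Npm1 (-0.35, adjusted p = 0.0313) was lower. All 3 lost the call with chromosomes centred, and Npm1 also without clone 2 replicate 1 or either control library.

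**Figure D3:**
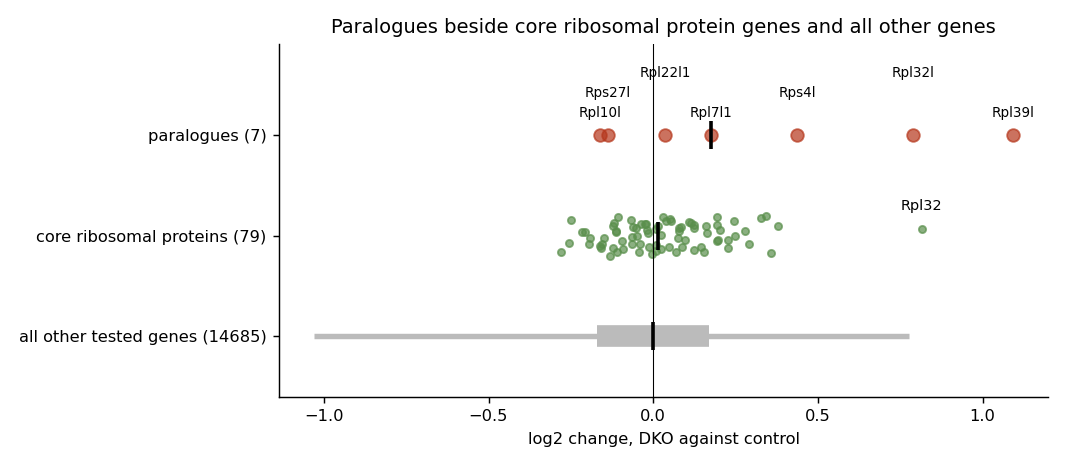
Log2 change in DKO against control (horizontal axis) of the 7 paralogues, 79 core ribosomal protein genes (points spread vertically for legibility) and 14685 other tested genes (thick bar for the interquartile range, thin bar for the central 95% of genes); black ticks are medians. Core genes other than Rpl32 lie between -0.28 and 0.38, and the paralogues between -0.16 and 1.09.

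The share of each paralogue beside its parent was taken per kilobase of the gene width in the deposited table, which can exceed the main mRNA. Rpl39l was at 6.6 and 7.2% of the Rpl39 level in the control, 23.2 and 14.3% in clone 1, and 11.4 and 10.3% in clone 2. The mean went from 6.9 to 14.8%, a difference of 1.03 on the log2 scale, with no overlap between DKO and control. Rpl10l was at 24.3% of Rpl10 in control libraries, at 15.8% for clone 1 and at 27.8% for clone 2. Rps4l was at 45.6% of Rps4x in the control and 57.0% in DKO, with overlapping libraries. The ratios are not centred by chromosome. In DKO the median log2 change was 0.48 for chromosome 6, which carries Rps4l, and -0.05 for the X chromosome, which carries Rps4x.

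The ratios of Rpl22l1 and Rps27l were below the control in every DKO library. Levels of 33.8% of all tested genes separated DKO from control libraries in either direction, and no such share was computed for ratios. Rpl22l1 went from 23.4% of Rpl22 to 19.2%, with a log2 change in DKO of 0.04 for the paralogue and 0.34 for the parent. Rps27l went from 18.4% of Rps27 to 13.4%, with log2 changes of -0.14 for Rps27l and 0.36 for Rps27. In clone 2 alone these were -0.22 and 0.09. With each chromosome centred the DKO changes were -0.11 for Rps27l and 0.175 for Rps27, which lies on chromosome 3 (median 0.18). For Rpl22l1, also on chromosome 3, and for Rpl22 the centred changes were -0.13 and 0.345. Rpl7l1 was above the control in all 4 DKO libraries, at 16.4% of Rpl7 against 13.4%. Rpl32l stood at 1.99% of Rpl32 in the control and 1.98% in DKO. Centred by chromosome, the DKO changes were 0.81 for Rpl32l and 0.35 for Rpl32, a chromosome 6 gene. Leaving out any 1 library kept the sign of 6 of the 7 log2 differences in ratio, taken without centring. The exception was Rpl32l (-0.06, from -0.25 to 0.11).

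**Figure D4:**
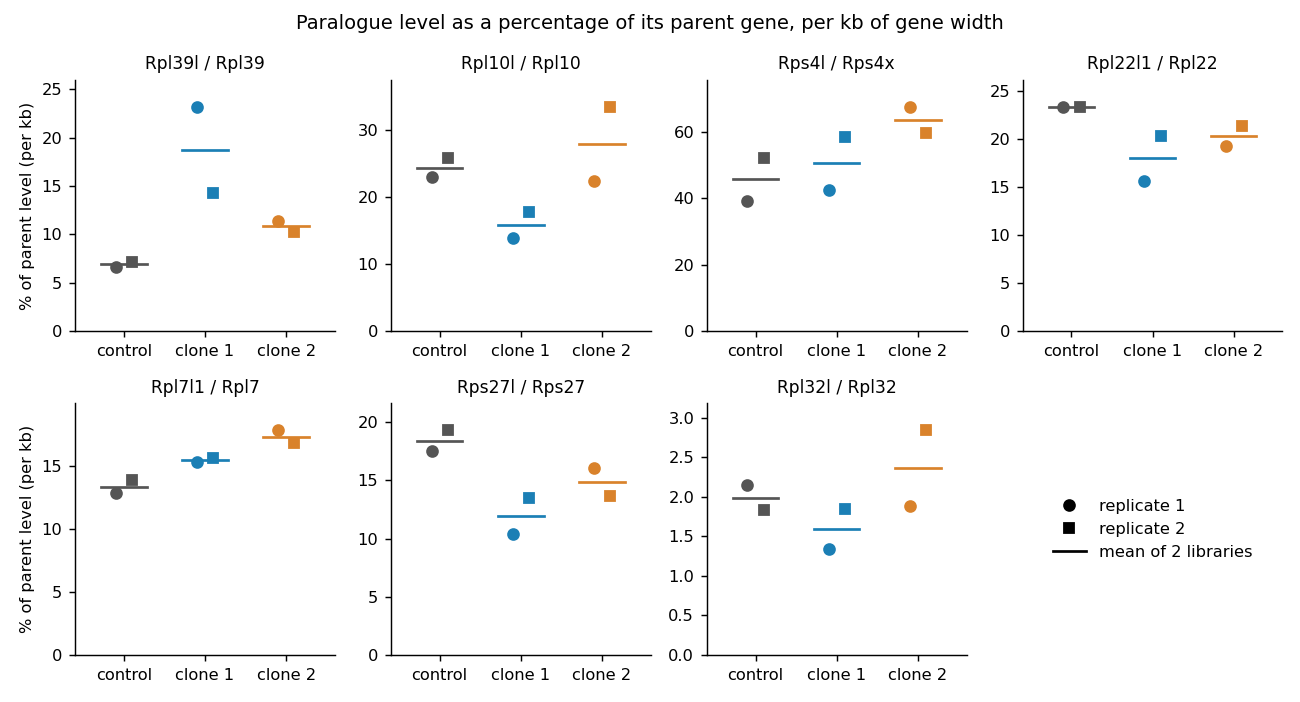
Level of each paralogue as a percentage of its parent (vertical axis, from 0), both per kilobase of gene width, in the control, clone 1 and clone 2; circles and squares are replicates 1 and 2, and lines are means of 2 libraries. Rpl39l reaches 23.2% in clone 1 against at most 7.2% in the control, and Rps27l and Rpl22l1 lie below the control in all 4 DKO libraries.

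Per kilobase the order in the control was Rps4l (250.3 CPM), Rps27l (112.0), Rpl7l1 (80.4), Rpl10l (49.1), Rpl22l1 (47.1), Rpl39l (25.2) and Rpl32l (17.7). In DKO it was Rps4l (339.2), Rps27l (101.8), Rpl7l1 (90.8), Rpl39l (53.7), Rpl22l1 (48.3), Rpl10l (43.9) and Rpl32l (30.6). Rpl39l thus moved from the sixth place to the fourth, but Rpl39l, Rpl22l1 and Rpl10l overlapped in DKO, at 38.1 to 78.2, 45.2 to 50 and 30.3 to 62.3 CPM per kilobase. Rps27l and Rpl7l1 also lay within 90.4 to 107.6 and 89.3 to 93.6 CPM per kilobase.

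The genes whose log2 CPM followed a paralogue most closely over the 6 libraries, among 11578 genes at a mean of at least 2 CPM, were Flvcr2 (Pearson r 0.997) and Ntpcr (0.995) for Rpl39l, and Nasp (0.996) and Macrod2 (0.991) for Rpl10l. For Rps4l they were Gss and Rpusd3, for Rpl22l1 Serf2 and Cdc25b, and for Rpl7l1 Sipa1l1 and Cdca3. For Rps27l they were Klf5 and Tcf7, and for Rpl32l Gcfc2 and Sumf1. With 6 points that share libraries and 3 groups such values are common: 181 genes exceeded an r of 0.95 with Rpl39l and 49 with Rpl10l. Between the paralogues themselves, r was -0.75 for Rpl39l and Rpl10l and 0.51 for Rpl39l and Rps4l. The highest r between paralogues was 0.96 (Rps4l and Rpl7l1) and the lowest was -0.86 (Rps27l and Rpl32l). Rpl39l and its parent Rpl39 had an r of -0.19. For the other paralogues r with the parent ran from -0.83 (Rpl7l1) to 0.72 (Rpl32l).

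Other markers that could accompany these values moved as follows. The 17 fibroblast and feeder markers summed to 497.0 to 542.2 CPM in the control, 646.0 to 712.6 in clone 1 and 463.0 to 481.4 in clone 2. Of the 10 that were tested, 1 was higher and 2 lower in DKO, and these calls depended on which control libraries were used. The one that was higher, Fbln2 on chromosome 6, lost the call with chromosomes centred. In clone 1 against control 2 of the 10 were higher and 4 lower, with a median of -0.61, and 3 of the 10 had a change above 0, while the list sum was higher. The 10 primitive endoderm markers summed to 65.3 to 66.7 CPM in the control, 58.3 to 61.9 in clone 1 and 52.0 to 54.9 in clone 2. Of the 9 that were tested, Col4a1 was lower in DKO (-0.54), a call lost without either control library. Of 32 tested genes of the state that resembles 2-cell embryos, 17 were lower in DKO, with a median of -1.16, among them Zscan4a (-1.42) and Pramel7 (-0.91). Rpl39l was highest in clone 1, where the fibroblast sum was also highest, and the part of this in the Rpl39l values was not tested.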

How the data were processed

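RNA sequencing counts of 6 libraries in 3 groups of 2 were used: control, DKO clone 1 and DKO clone 2. The deposited values are whole, unscaled read counts for Entrez genes, with widths, made by the authors with STAR 2.5.0a on mm10 (GRCm38), per the submitters' processing notes. ScriptSeq v2 libraries were made from DNase-treated total RNA, per the labels' protocols. The counting tool, annotation, counted strand and handling of multi-mapping reads were not given in the sources used here, so near-identical copies may share reads. Of 24467 IDs, 24437 were matched to symbols in a RefSeq gene table. The 30 unmatched IDs held 0.389 to 1.62% of the reads. The chi-square per gene between replicates was 11.6 to 42.1, so that no pair looked like 1 library split.

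Counts were filtered with filterByExpr (14771 genes kept), scaled by TMM (factors 0.992 to 1.01) and tested, two-sided, with the quasi-likelihood test of edgeR 4.0.16 in R 4.3.3, with Benjamini-Hochberg adjustment over all tested genes and a threshold of 0.05. The genotype contrast came from a fit on genotype (4 residual degrees of freedom), and the clone contrasts from a fit on the 3 groups (3 residual degrees of freedom). The fits were tested on simulated data. Standard errors come from the F statistic. Library totals of 24628872 to 34641560 reads limit precision by counting error only at low counts, and replicate spread covers these libraries only.

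The members and the gene lists were chosen with earlier results of these data known. Lists were core large- and small-subunit ribosomal proteins, other paralogues, ribosome biogenesis, p53 targets, meiosis and germline, 2-cell-like state, and markers of pluripotency, fibroblasts, primitive endoderm and germ cells. Named are all members and parents, up to 4 called genes per list with the smallest adjusted p in DKO (not all printed), the extremes of the core list, and for each member the 2 genes with the highest Pearson r among genes at a mean of 2 CPM or more. Perp and Plk2 were chosen after their values were seen. Windows of 50 bases were compared across all GENCODE M21 transcripts, on both strands. Alternatives were RLE or library-size scaling, other filters, DESeq2 1.42.0, limma-voom (limma 3.58.1), a replicate block, leaving out each library, counts summed per clone and each chromosome centred on its median log2 change.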

Additional observations from a re-analysis of the deposited data

Results flagged for a closer look

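Rpl22, the parent of Rpl22l1, had 1 DKO library far from the others: clone 1 replicate 1 was at 925.5 CPM and the other 3 at 674.6 to 692.1 CPM. The gap was 0.93 of the range of the 4 libraries, above the Dixon limit for that number. Such a gap is met by chance in about 1 in 20 groups of 4. The same library was the highest of the 6 for 35 of 79 core ribosomal protein genes, and the part of this in the Rpl22 value was not tested.

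By the test of clone 2 against clone 1, the clones differed for 3 paralogues and 1 parent. The log2 differences were -0.76 for Rpl39l, 0.78 for Rpl10l, 0.59 for Rpl32l and -0.49 for Rps27, whose reads cannot be told from those of Rps27rt. Rpl10l kept the call in all 14 alternatives, while Rpl39l lost it in 1, Rps27 in 4 and Rpl32l in 7.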

How the results depend on the processing

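Counts of called genes depended on the libraries used and on how they were combined. DKO against control gave 1283 genes, 772 with each chromosome centred (337 higher and 435 lower, against 748 and 535), 2 with the 2 libraries of a clone summed (residual degrees of freedom 1), and 246 to 1186 with single libraries left out, lowest without control replicate 1 (313 without control replicate 2). Leaving out single libraries gave 1292 to 2051 genes in clone 1 against control (2253 with all), 1123 to 2302 in clone 2 against control (2211) and 270 to 934 in clone 2 against clone 1 (930). The last was 1453 without a filter on low counts. With an arm reduced to 1 library, that library is assumed to vary like the others. DESeq2 called 1609 genes in DKO.

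Signs reversed with chromosomes centred for Rps4l (-0.027 in DKO, -0.11 in clone 1) and for Rpl22l1 (-0.134 in DKO, -0.198 in clone 1, -0.072 in clone 2 and 0.126 between the clones, and -0.121 to 0.011 between the clones with single libraries left out). With single libraries left out the DKO change ran from -0.031 to 0.045 for Rpl39 and from -0.049 to 0.088 for Rpl10. Rps27l in clone 1 reached 0.065 and Rpl10l in clone 2 -0.009 in the same way.

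Replicate numbers did not pair the libraries: deviations of same-numbered libraries correlated at 0.03, -0.08 and 0.03. With the number as a replicate block, 928 genes were called in DKO, 2229 in clone 1, 2146 in clone 2 and 889 between the clones. The block changed no call of a member or parent between the clones. Of 798 recomputed changes of members and parents over the 4 contrasts, 720 kept their sign and side of the threshold, 30 no longer passed, 16 newly passed and 34 changed sign, 2 of them among the calls lost and none passing there. Rpl32l, at 214 to 459 reads, is the paralogue whose precision depth limits most.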
